A study of Homo sapiens with 6 samples.

Results

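The 10 genes described here carry acetyl-CoA through fatty acid synthesis to elongated and desaturated fatty acids, together with the gene of a transcription factor that acts on the pathway. They are *ACLY*, *ACSS2*, *ACACA*, *FASN*, *SCD*, *FADS1*, *FADS2*, *ELOVL5*, *ELOVL6* and *SREBF1*. They were chosen by gene symbol from the 58735 genes of the expression table, and each symbol was found in 1 row. All 10 had enough signal in these cells to be tested. In TPC-1 cells that overexpress *RRM2*, 8 of the 10 were lower than in wild strain TPC-1, *ELOVL5* did not pass the test, and *ACLY* was slightly higher. Changes were common in these cells, with 67.6% of the 13621 tested genes passing the same test, 32.7% as lower and 34.9% as higher. The decreases ran from 1.32-fold for *FADS2* to 6.23-fold for *SCD*.

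The TPC-1 line was derived from a human papillary thyroid carcinoma. The study compared the mRNA of wild strain TPC-1 (3 libraries) with that of *RRM2*-OE-TPC-1 (3 libraries), the same line infected with a lentivirus that carries *RRM2* behind a CMV promoter and selected with puromycin. *RRM2* encodes the small subunit of ribonucleotide reductase, the enzyme that makes deoxyribonucleotides for DNA synthesis. The libraries of each condition are described as biological triplicates. The paper names no independently infected *RRM2*-OE-TPC-1 lines. Standard errors and p-values given here thus measure spread between libraries, not between independently made lines. Libraries of an empty vector were not analysed here, so that overexpression of *RRM2* cannot be told apart from infection and selection. In the labels, the genotype of *RRM2*-OE-TPC-1 replicates 2 and 3 reads RRM3 and RRM4, whereas their titles give *RRM2*.

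Cells make fatty acids from acetyl-CoA in the cytosol. Acetyl-CoA comes from citrate through *ACLY* or from acetate through *ACSS2*, is carboxylated to malonyl-CoA by *ACACA* and is built into palmitate by *FASN*. *ELOVL6* lengthens palmitate, *SCD* inserts the first double bond to give monounsaturated fatty acids, and *FADS1*, *FADS2* and *ELOVL5* desaturate and lengthen polyunsaturated fatty acids. *SREBF1* encodes SREBP-1, a membrane-bound transcription factor that is cleaved, enters the nucleus and switches on many genes of this pathway. The pathway is active in liver and fat, and is often raised in carcinoma cells.

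The overexpressed gene was checked first. *RRM2* was at 9.17, 9.05 and 8.52 FPKM in TPC-1 replicates 1 to 3, and at 50.4, 47.5 and 47.2 FPKM in *RRM2*-OE-TPC-1. FPKM are described as fragments scaled to gene length and sequencing depth. For *RRM2* and the members this length was that of all annotated exons merged. Comparisons of levels between genes therefore depend on the annotation. The depth in the deposited values was not simply the reads on genes. It was 1.03, 1.05 and 1.05 times these reads in TPC-1 replicates 1 to 3, against 1.01, 1.00 and 0.997 times in *RRM2*-OE-TPC-1. The difference in *RRM2* was 2.43 on the log2 scale (SE 0.0442, adjusted p = 1.11e-08), and the groups did not overlap, so that the 6 libraries went with their titles. Reads from the lentiviral and the endogenous copy were counted together.

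Each library held 14317091 to 17084067 reads on genes, 4.29% to 5.89% of them on mitochondrial genes. Of the 6 thyroid markers examined, *PAX8*, a thyroid transcription factor, was at 69.3 ± 1.84 FPKM in TPC-1, against 58.5 ± 1.92 in *RRM2*-OE-TPC-1 (mean ± SD of 3 libraries). *FOXE1* was also expressed and lower, *TG* and *TSHR* were near 0, and *NKX2-1* was listed at 0. The summed level of the thyroid markers was 71.5 to 75.3 FPKM in TPC-1, against 59.7 to 63.1 in *RRM2*-OE-TPC-1. Of 6 epithelial markers, *KRT19*, *EPCAM* and *CDH1* were near 0, and the sum rose from 42.9 to 47.1 FPKM to 88.4 to 90.8 FPKM, mostly through *KRT18*. Fat and liver cells also make fatty acids. The 5 adipocyte markers summed to at most 0.268 FPKM, with *ADIPOQ*, *LEP* and *CIDEC* at 0 in every library. Of the 5 hepatocyte markers only *SERPINA1* was expressed, at 13.2 ± 0.941 FPKM in TPC-1, against 7.40 ± 0.792 in *RRM2*-OE-TPC-1, while *APOB* and *TTR* were listed at 0. The 5 leukocyte markers summed to 0.107 to 0.410 FPKM and the 5 fibroblast markers to 2.78 to 3.16 FPKM. The part of the thyroid, epithelial and *SERPINA1* shifts in the results was not tested.

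To show where transcription of these genes begins, the bases upstream of the start are given for the most decreased enzyme gene, for the transcription factor gene and for the member that was higher. They come from RefSeq on GRCh38.p14, are written 5′ to 3′ along the gene's own strand and leave out bases inside the gene's annotated exons. Capitals mark the CCAAT box, a site of the factor NF-Y, as CCAAT or as its reverse complement ATTGG.
*SCD*, chr10:100346983-100347123, + strand: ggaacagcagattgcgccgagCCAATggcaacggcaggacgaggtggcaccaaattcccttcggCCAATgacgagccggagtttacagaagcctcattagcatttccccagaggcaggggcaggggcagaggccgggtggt
*SREBF1*, chr17:17837003-17837236, - strand: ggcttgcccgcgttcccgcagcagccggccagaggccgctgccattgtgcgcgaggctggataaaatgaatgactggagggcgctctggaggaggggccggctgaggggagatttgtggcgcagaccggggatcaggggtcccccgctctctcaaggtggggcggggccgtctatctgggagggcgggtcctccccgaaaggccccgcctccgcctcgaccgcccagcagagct
*ACLY*, chr17:41919023-41919272, - strand: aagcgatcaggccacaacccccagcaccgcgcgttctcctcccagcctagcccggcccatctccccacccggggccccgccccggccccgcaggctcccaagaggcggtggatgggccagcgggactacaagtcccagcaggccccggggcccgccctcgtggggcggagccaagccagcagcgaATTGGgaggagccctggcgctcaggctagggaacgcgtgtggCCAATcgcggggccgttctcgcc

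The 141 bases of *SCD* and the 250 bases of *ACLY* each held 2 CCAAT boxes, whereas the 234 bases of *SREBF1* held none. The stretches of *SCD* and *SREBF1* end at the first annotated base of the gene, and that of *ACLY* lies between exons of longer annotated transcripts. Of the 10 genes, 9 had an entry among the RefSeq promoters, with 14 start sites between them. *FASN* had no entry and was not searched. For the others, 4 motifs were searched on both strands in the 250 bases before each start. A CCAAT box was present for 5 genes, *ACACA*, *ACLY*, *ACSS2*, *ELOVL5* and *SCD*, against 32.0% of all 35116 RefSeq promoters. The GC box GGGCGG, a site of the factor SP1, was present for 8 genes, against 42.6% of promoters. *ELOVL5* was the exception among the 9, and the GC boxes of *SCD* lay outside the bases shown. Genes with several start sites had more windows in which a motif could occur. The letters TCACNCCAC are a form of the sterol regulatory element that SREBPs bind. They and TATAAA occurred in the windows of 0 of the 9 genes, against 0.883% and 10.7% of promoters. A match is only a match of letters, and the absence of these letters says nothing about binding by a factor. The CCAAT boxes did not separate the members by direction, since *SCD* was lower, *ACLY* was higher and *ELOVL5* did not pass the test.

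**Figure D1:**
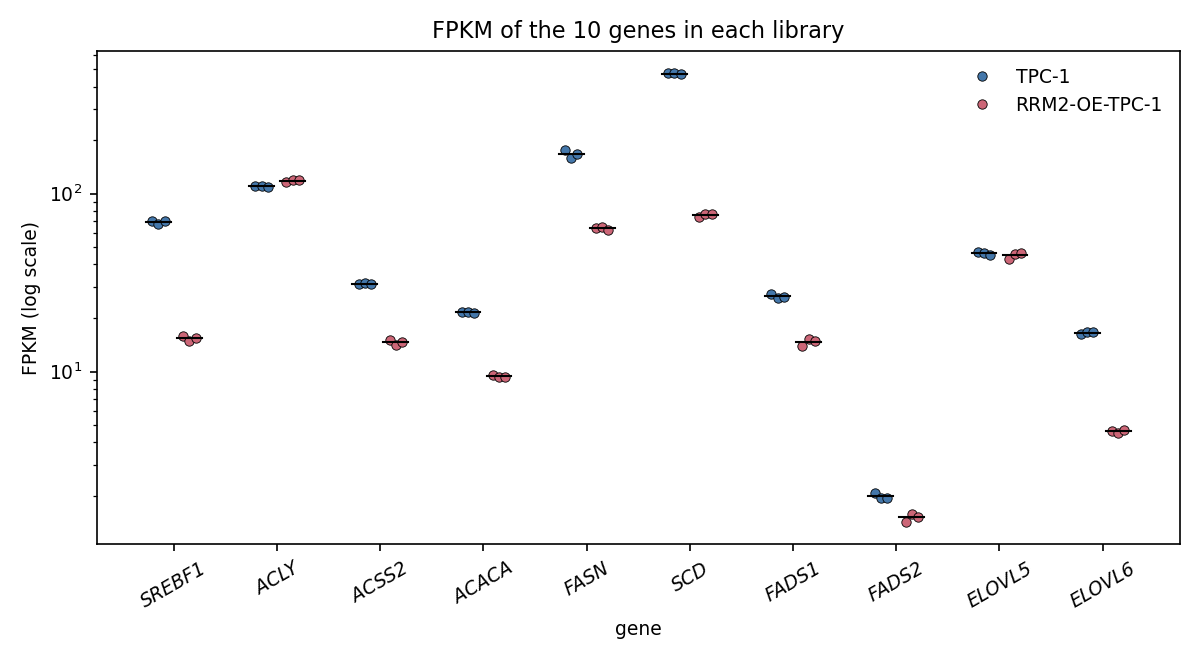
FPKM (log axis) of the 10 genes, where each point is 1 library and the bars mark group means of 3 libraries of TPC-1 and of *RRM2*-OE-TPC-1. The points of the groups lie apart for *SCD*, *FASN*, *SREBF1*, *ACSS2*, *FADS1*, *ACACA* and *ELOVL6*, lie close for *ACLY* and *FADS2*, and overlap for *ELOVL5*.

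Differences were tested with limma on log2(FPKM + 0.1) over 13621 expressed genes, and p-values were adjusted over all of them by the Benjamini-Hochberg method. A gene passed the test at an adjusted p of 0.05 or less. The FPKM of the groups did not overlap for 72.2% of tested genes, 37.3% with higher and 35.0% with lower values in *RRM2*-OE-TPC-1. Among the members this held for 8 as lower and 1 as higher, and *ELOVL5* overlapped. A change of at least 2-fold (log2 fold change of 1 or more in size) was found for 11.5% of tested genes, 4.48% as higher and 6.97% as lower. Of the members, 0 were 2-fold higher and 6 were 2-fold lower, namely *SCD*, *SREBF1*, *ELOVL6*, *FASN*, *ACACA* and *ACSS2*. By a test of whether the change exceeded 2-fold, 5 of these 6 passed, without *ACSS2*. This stricter test was counted for the members alone, so no share of all tested genes stands beside it. The median log2 fold change was -1.14 over the 10 members and 0.011 over all tested genes, whose middle 50% ran from -0.37 to 0.36. Whichever library was left out, 8 members again passed as lower, 6 of them by 2-fold. Shares of all tested genes in those fits are not given here. Because these are bulk libraries, fewer cells expressing a gene and less of its mRNA in each cell cannot be told apart.

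Of the acetyl-CoA suppliers, *ACSS2* fell and *ACLY* was slightly higher. Positions are those of GENCODE 29 on GRCh38. *ACLY* (ENSG00000131473, chr17:41866908-41930542, - strand) encodes ATP-citrate lyase, which splits citrate into acetyl-CoA and oxaloacetate. It was at 111, 111 and 109 FPKM in TPC-1 and at 116, 119 and 120 FPKM in *RRM2*-OE-TPC-1. The groups did not overlap, but the difference was small, 0.10 on the log2 scale (SE 0.0303, adjusted p = 0.0182, 95% interval 0.030 to 0.17). It did not pass when the libraries were scaled to their total reads (0.042, adjusted p = 0.216). It also did not pass without TPC-1 replicate 3 (0.094, adjusted p = 0.0668), without *RRM2*-OE-TPC-1 replicate 2 (0.093, 0.0695) or without *RRM2*-OE-TPC-1 replicate 3 (0.092, 0.0702).

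*ACSS2* (ENSG00000131069, chr20:34872146-34927962, + strand) encodes the acetyl-CoA synthetase that uses acetate. It was at 31.2, 31.6 and 30.9 FPKM in TPC-1 and at 15.0, 14.2 and 14.7 FPKM in *RRM2*-OE-TPC-1. Every *RRM2*-OE-TPC-1 library was thus below 50% of the TPC-1 mean of 31.3 ± 0.340 FPKM (SD, n = 3). The log2 fold change was -1.09 (SE 0.0361, adjusted p = 1.74e-07). Within each library, the ratio of *ACSS2* to *ACLY* was 0.281, 0.286 and 0.283 in TPC-1, against 0.130, 0.119 and 0.123 in *RRM2*-OE-TPC-1.

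Both enzymes that turn acetyl-CoA into palmitate fell. *ACACA* (ENSG00000278540, chr17:37084988-37406818, - strand) encodes acetyl-CoA carboxylase 1, which makes malonyl-CoA in the rate-limiting step of synthesis. Its levels were 21.5, 21.6 and 21.4 FPKM in TPC-1, against 9.63, 9.30 and 9.34 FPKM in *RRM2*-OE-TPC-1. The values were tight within each group, and the mean fell to 43.8% of the TPC-1 level, a log2 fold change of -1.18 (SE 0.0360, adjusted p = 1.13e-07). *FASN* (ENSG00000169710, chr17:82078333-82098332, - strand) encodes fatty acid synthase, the multienzyme that makes palmitate from malonyl-CoA. It was at 176, 160 and 168 FPKM in TPC-1 and at 64.0, 65.0 and 62.6 FPKM in *RRM2*-OE-TPC-1. TPC-1 replicate 2 was the lowest of its group and was still more than 2-fold above every *RRM2*-OE-TPC-1 library. The log2 fold change was -1.39 (SE 0.0411, adjusted p = 9.88e-08), or 2.62-fold lower.

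*SCD* changed most among the members. It encodes stearoyl-CoA desaturase, which makes oleate and palmitoleate (ENSG00000099194, chr10:100347124-100364834, + strand), and has 1 annotated transcript with 6 exons. It was at 474, 476 and 470 FPKM in TPC-1 and at 74.1, 76.8 and 77.1 FPKM in *RRM2*-OE-TPC-1. Every *RRM2*-OE-TPC-1 library was below 20% of every TPC-1 library, and the spread within a group was small, with SDs of 2.96 and 1.65 FPKM (n = 3 each). The log2 fold change was -2.64 (SE 0.0322, adjusted p = 2.91e-09, 95% interval -2.71 to -2.56). By mean FPKM *SCD* was the 41st of the 13621 tested genes in TPC-1, against the 458th in *RRM2*-OE-TPC-1. By log2 fold change it ranked 63rd from the most decreased gene. Its share of all reads on genes went from 0.265% to 0.0409%.

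The desaturases of polyunsaturated fatty acids changed less. *FADS1* (ENSG00000149485, chr11:61799625-61829318, - strand) encodes the delta-5 desaturase, and *FADS2* (ENSG00000134824, chr11:61792980-61867354, + strand) encodes the delta-6 desaturase that acts before it. *FADS1* was at 27.4, 26.0 and 26.2 FPKM in TPC-1 and at 13.9, 15.3 and 14.8 FPKM in *RRM2*-OE-TPC-1, a log2 fold change of -0.85 (SE 0.0465, adjusted p = 1.79e-06). *FADS2* was at 2.07, 1.96 and 1.96 FPKM in TPC-1 and at 1.43, 1.59 and 1.53 FPKM in *RRM2*-OE-TPC-1, a log2 fold change of -0.38 (SE 0.0913, adjusted p = 0.00668). In both genes the groups did not overlap, and *FADS2* was the lowest of the 10 members in both conditions, with 228 to 380 reads per library. The genes are neighbours on opposite strands, and 490 bases of their exons overlap, 4.79% of the exon length of *FADS1* and 4.44% of that of *FADS2*. Whether counting used strand is not given in the sources used here, so reads in those bases cannot be told apart. *FADS2* also shares 49 exon bases on its own strand with *FEN1*, a DNA repair nuclease gene named for this overlap, which was at 15.6 FPKM in TPC-1, against 42.2 FPKM in *RRM2*-OE-TPC-1.

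Of the elongases, *ELOVL6* fell and *ELOVL5* did not pass the test. *ELOVL6* (ENSG00000170522, chr4:110045846-110199199, - strand) encodes the elongase that lengthens palmitate to stearate. It was at 16.2, 16.7 and 16.7 FPKM in TPC-1 and at 4.65, 4.53 and 4.70 FPKM in *RRM2*-OE-TPC-1. It was thus 3.57-fold lower, a log2 fold change of -1.82 (SE 0.0427, adjusted p = 3.87e-08). *ELOVL5* (ENSG00000012660, chr6:53267398-53349179, - strand) encodes an elongase of polyunsaturated fatty acids. It was at 47.0, 46.7 and 45.3 FPKM in TPC-1 and at 43.1, 46.1 and 46.5 FPKM in *RRM2*-OE-TPC-1, and the groups overlapped. The log2 fold change was -0.037 (SE 0.0387, adjusted p = 0.424), with a 95% interval of -0.13 to 0.053. Scaled to total reads, *ELOVL5* passed as lower (-0.095, adjusted p = 0.0428).

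*SREBF1* (ENSG00000072310, chr17:17810399-17837002, - strand), the gene of SREBP-1, had the second largest decrease of the 10. It was at 70.6, 67.5 and 70.1 FPKM in TPC-1 and at 15.8, 14.9 and 15.5 FPKM in *RRM2*-OE-TPC-1. The *RRM2*-OE-TPC-1 libraries lay close to each other and far below TPC-1, with means of 69.4 ± 1.64 and 15.4 ± 0.433 FPKM (SD, n = 3 each). The log2 fold change was -2.17 (SE 0.0361, adjusted p = 9.81e-09), or 4.51-fold lower. The gene has 23 annotated transcripts, among them those of SREBP-1a and SREBP-1c, and gene-level values do not separate them. On the opposite strand, the exons of *RAI1*, named for this overlap, share 556 bases with those of *SREBF1*, 6.92% of its exon length. *RAI1* was at 11.0 FPKM in TPC-1, against 8.76 FPKM in *RRM2*-OE-TPC-1.

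**Figure D2:**
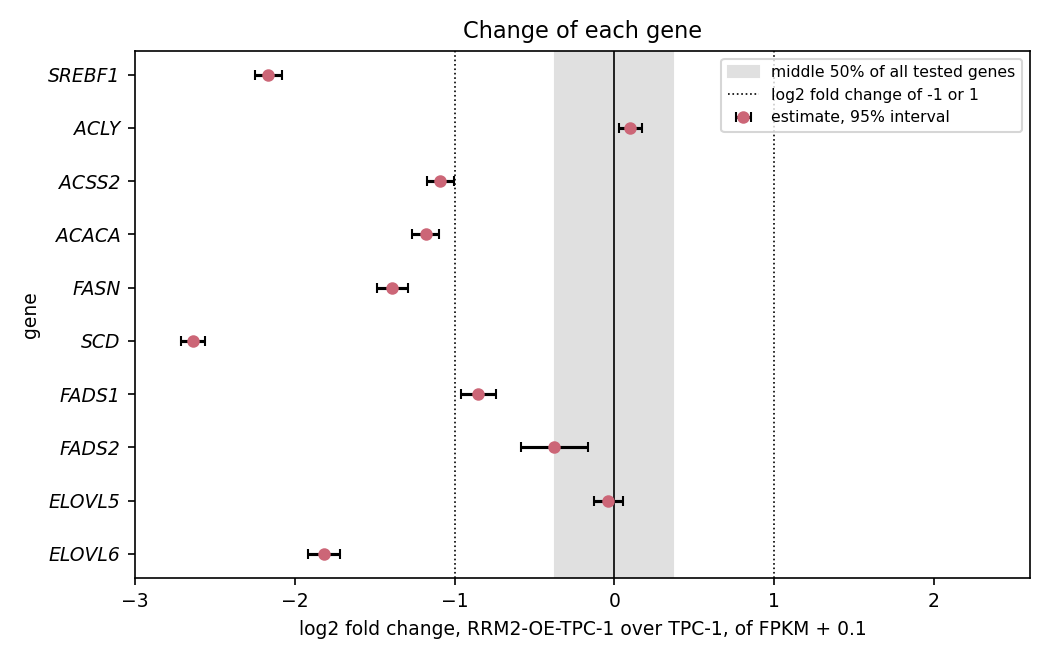
Log2 fold change of each gene, *RRM2*-OE-TPC-1 over TPC-1, on FPKM + 0.1, with its 95% interval from limma (n = 3 each) and the middle 50% of all tested genes shaded. *SCD* lies at -2.64, *FADS2* at -0.38, the interval of *ELOVL5* spans 0 and that of *ACLY* lies at 0.030 to 0.17.

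Summed over the 10 genes, the level went from 976, 958 and 959 FPKM in TPC-1 to 357, 367 and 366 FPKM in *RRM2*-OE-TPC-1. *SCD* alone made up 48.5% to 49.6% of the sum in TPC-1, against 20.7% to 21.1% in *RRM2*-OE-TPC-1. *FASN* made up 16.7% to 18.0% in TPC-1, against 17.1% to 17.9% in *RRM2*-OE-TPC-1, so that its share overlapped between the groups although its level fell. The share of *ACLY* went from 11.4% to 11.5% in TPC-1 to 32.4% to 32.6% in *RRM2*-OE-TPC-1. In TPC-1 the order from high to low was *SCD*, *FASN*, *ACLY*, *SREBF1*, *ELOVL5*, *ACSS2*, *FADS1*, *ACACA*, *ELOVL6* and *FADS2*, with no overlap between libraries of neighbours. In *RRM2*-OE-TPC-1 it was *ACLY*, *SCD*, *FASN*, *ELOVL5*, *SREBF1*, *FADS1*, *ACSS2*, *ACACA*, *ELOVL6* and *FADS2*. There, *FADS1* overlapped with both *SREBF1* and *ACSS2*, and the other neighbours did not overlap.

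**Figure D3:**
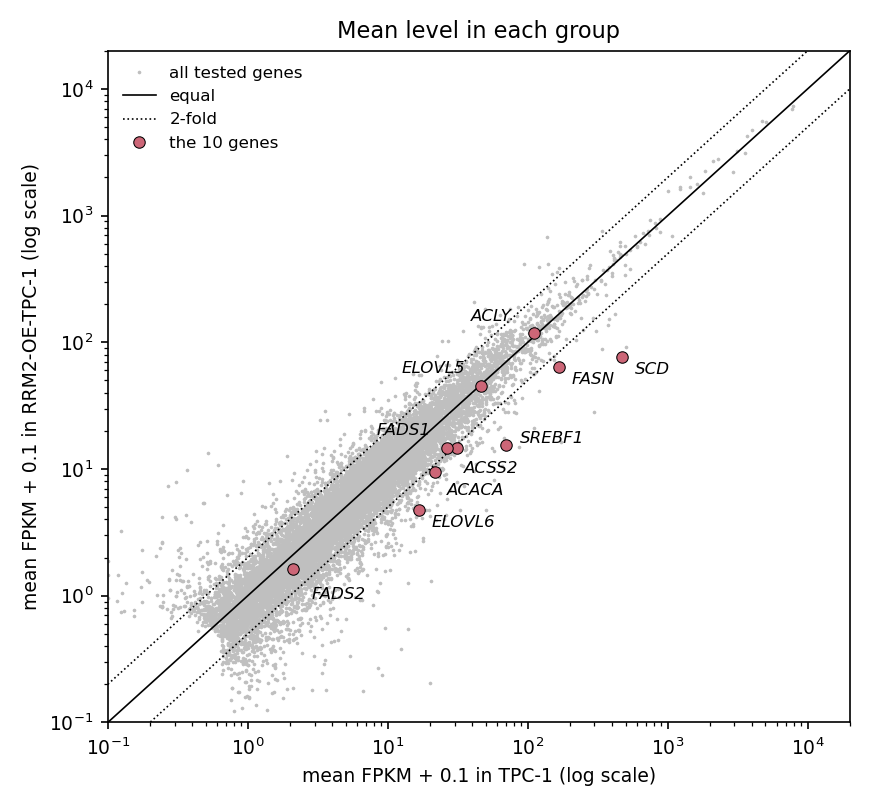
Mean FPKM + 0.1 of each tested gene in TPC-1 (x axis) and *RRM2*-OE-TPC-1 (y axis), both log scales, with lines for equal levels and for 2-fold differences. The 6 members that were 2-fold lower lie below the lower dotted line, *FADS1* and *FADS2* lie between the lines, and *ELOVL5* and *ACLY* lie near equality.

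Ratios within a library compare genes with related tasks without use of the scaling between libraries. In all 5 pairs examined the groups did not overlap. For single genes this held for 72.2% of those tested, and no share over other pairs was counted. The members were chosen with earlier results of these data known, so this count is no test of the pairs. *SCD* to *FASN* was 2.70, 2.98 and 2.81 in TPC-1, against 1.16, 1.18 and 1.23 in *RRM2*-OE-TPC-1, so *SCD* was lower also in relation to *FASN*, with a log2 difference of -1.25. *ELOVL6* to *ELOVL5* was 0.357 ± 0.0122 in TPC-1, against 0.102 ± 0.00488 in *RRM2*-OE-TPC-1 (mean ± SD of 3 libraries). *FADS2* to *FADS1* went the other way, from 0.0751 ± 0.000369 to 0.103 ± 0.000421, with the larger decrease in *FADS1*. *SREBF2*, the gene of SREBP-2, which acts mainly on cholesterol synthesis, was also lower but less so than *SREBF1*. The ratio of *SREBF2* to *SREBF1* was 0.855, 0.868 and 0.884 in TPC-1, against 2.38, 2.46 and 2.24 in *RRM2*-OE-TPC-1. By FPKM, *SREBF1* was thus the higher of the pair in TPC-1 and the lower in *RRM2*-OE-TPC-1. The two-sided exact permutation test gave p = 0.1 for each of the 5 log2 ratios, also after adjustment, which is the smallest value that 3 against 3 libraries allow.

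**Figure D4:**
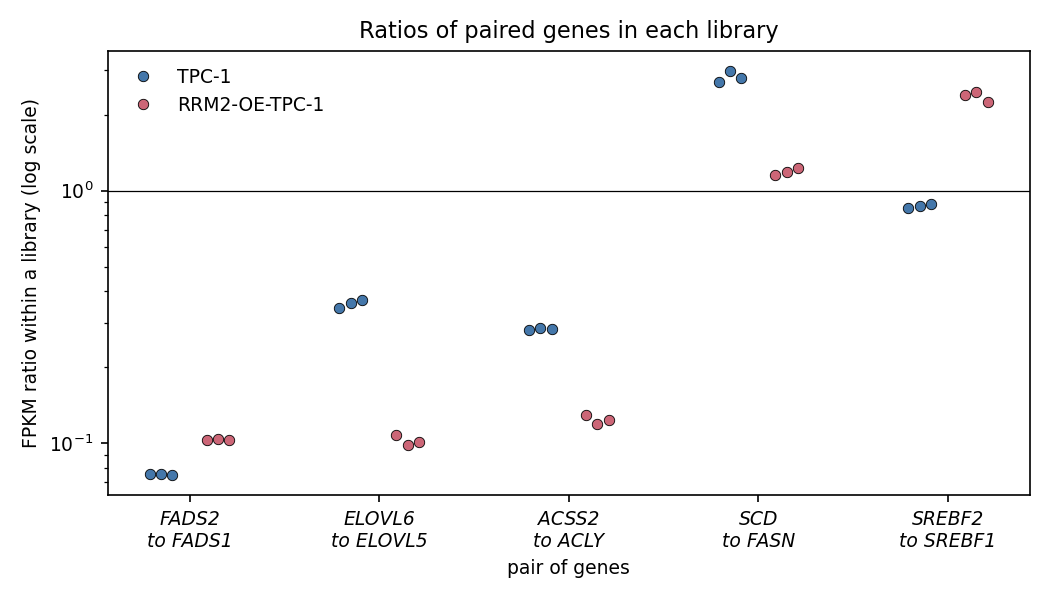
FPKM ratio within each library (log axis) for 5 pairs of genes, where each point is 1 of 3 libraries of TPC-1 or *RRM2*-OE-TPC-1 and the line at 1 marks equal levels. The groups lie apart in each pair, and *SREBF2* to *SREBF1* crosses 1, from 0.855 to 0.884 in TPC-1 to 2.24 to 2.46 in *RRM2*-OE-TPC-1.

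Further genes of lipid metabolism were taken from 8 lists. Genes that supply citrate and NADPH, the reducing power of synthesis, were 6, of which 2 passed as higher, 3 as lower and 1 did not pass. The largest decrease was that of *ME1*, malic enzyme, from 42.6 ± 1.96 to 24.5 ± 0.889 FPKM (log2 fold change -0.79, adjusted p = 2.11e-06). The largest increase was that of *CS*, citrate synthase, from 30.1 ± 0.858 to 33.9 ± 0.804 FPKM (0.17, adjusted p = 0.00322). None of the 6 changed 2-fold, and their median log2 fold change was -0.27. Among the others, named here after their values were seen, *IDH1*, which makes NADPH, was lower at -0.64 on the log2 scale, and the citrate carrier *SLC25A1* did not pass (-0.083, adjusted p = 0.191).

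Of the other elongation and desaturation genes, more passed as higher than as lower. Of 18, 13 were tested, 7 passed as higher, 1 as lower and 5 did not pass, with a median log2 fold change of 0.15. *HACD3*, a dehydratase of the elongation cycle, rose from 15.0 ± 0.352 to 24.8 ± 1.02 FPKM (0.73, adjusted p = 2.43e-06). *HACD1*, another such dehydratase, was the lower one (-0.26, adjusted p = 0.0474) and lost this in 8 of 15 alternative analyses. *SCD5*, the second human stearoyl-CoA desaturase, named after its values were seen, was at 13.4 FPKM in TPC-1, against 14.9 FPKM in *RRM2*-OE-TPC-1 (0.15, adjusted p = 0.0259), whereas *SCD* fell.

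Of 13 genes that activate fatty acids or act with acetyl-CoA carboxylase, 9 were tested, of which 2 passed as higher and 5 as lower (median log2 fold change -0.19). *ACACB*, the carboxylase of the mitochondrial surface, whose product restrains oxidation, rose from 1.39 ± 0.0128 to 3.03 ± 0.0789 FPKM (1.07, adjusted p = 8.96e-06), while its counterpart *ACACA* fell. *THRSP*, a partner of lipogenic enzymes, had 18, 12 and 23 reads in TPC-1 and 1, 4 and 3 reads in *RRM2*-OE-TPC-1. It met the filter on low values only through the TPC-1 libraries, so it was tested only because it was high there, and its place among the 5 lower genes is no support for a direction. Its homologue *MID1IP1*, which promotes polymerisation of acetyl-CoA carboxylase, was named after its values were seen. It was at 36.6 ± 1.89 FPKM in TPC-1, against 12.8 ± 0.489 FPKM in *RRM2*-OE-TPC-1, a log2 fold change of -1.51 (adjusted p = 1.54e-07).

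Fatty acid synthesis of mitochondria is a separate pathway with its own enzymes. Its 7 genes were all tested, 2 passed as higher, 3 as lower and 2 did not pass (median log2 fold change -0.13). *NDUFAB1*, the mitochondrial acyl carrier protein and also a part of respiratory complex I, rose from 13.2 ± 0.967 to 25.8 ± 1.21 FPKM (0.96, adjusted p = 3.58e-06). *HSD17B8* had the largest decrease (-0.43, adjusted p = 0.0400), which was lost in 7 of 15 alternative analyses.

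Processing and control of SREBPs was covered by 17 genes, of which 16 were tested, 3 passed as higher and 9 as lower (median log2 fold change -0.22). Of the lower genes, *NR1H3* reached 0.5 FPKM in every TPC-1 library but only in replicate 1 of *RRM2*-OE-TPC-1 (0.702, 0.438 and 0.346 FPKM). It was thus tested only because it was high in TPC-1, and its place among the 9 is no support for a direction. *INSIG1*, which holds SREBPs in the endoplasmic reticulum and is itself an SREBP target, fell from 25.2 ± 0.886 to 11.5 ± 0.276 FPKM (-1.12, adjusted p = 2.74e-07). *SREBF2* fell from 60.3 ± 1.67 to 36.3 ± 1.52 FPKM (-0.73, adjusted p = 1.96e-06). *SCAP*, the escort protein of SREBPs, was at 13.4 ± 0.178 and 12.8 ± 0.588 FPKM and did not pass (-0.070, adjusted p = 0.197). *FBXW7*, a ubiquitin ligase subunit that marks nuclear SREBPs for degradation, had the largest increase (0.38, adjusted p = 0.0109).

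Cholesterol synthesis and uptake is the other set of SREBP targets. Of 12 genes 11 were tested, 3 passed as higher and 6 as lower, 0 of them by 2-fold. Their median log2 fold change was -0.22, against -1.14 for the members. The members and this list were chosen with earlier results known, so the medians are no test of a difference. *IDI1*, an isomerase of the isoprenoid steps, had the largest increase (0.28, adjusted p = 0.00334).

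Glycerolipid synthesis, which uses the fatty acids made, had 15 genes, all tested, of which 7 passed as higher and 3 as lower (median log2 fold change 0.17). Of the higher genes, *DGAT2* was at 0.440, 0.331 and 0.405 FPKM in TPC-1, against 0.726, 0.628 and 0.659 FPKM in *RRM2*-OE-TPC-1. It met the filter on low values only through the *RRM2*-OE-TPC-1 libraries, so its place among the 7 is no support for a direction. *PLIN3*, a lipid droplet coat protein, rose from 40.4 ± 1.39 to 66.1 ± 1.96 FPKM (0.71, adjusted p = 1.73e-06). *LPIN1*, a phosphatidate phosphatase that makes diacylglycerol, fell from 20.2 ± 0.183 to 6.75 ± 0.417 FPKM (-1.57, adjusted p = 1.55e-07) and was the 1 gene of this list that changed 2-fold. Of 24 genes of fatty acid oxidation 22 were tested, 7 passed in each direction and 8 did not pass, with a median log2 fold change of 0.0038. *SLC25A20*, the carnitine carrier of mitochondria, rose from 6.92 ± 0.725 to 10.7 ± 0.211 FPKM (0.62, adjusted p = 1.35e-04), and *PPARA*, a transcription factor of oxidation genes, fell from 5.90 ± 0.115 to 2.04 ± 0.0663 FPKM (-1.49, adjusted p = 5.60e-07). Of the 8 lists, each list's median lay closer to 0 than that of the members. Members and lists were chosen with earlier results of these data known, so this contrast is no test of the members.

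**Figure D5:**
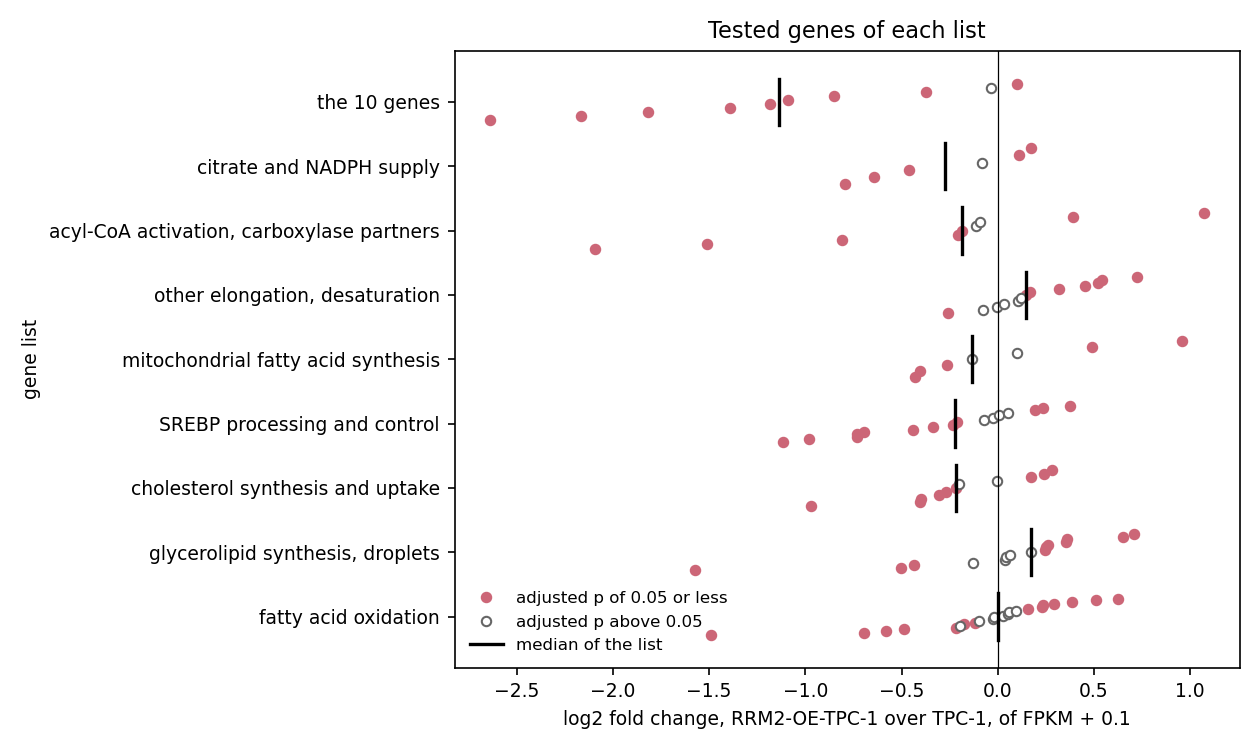
Log2 fold change, *RRM2*-OE-TPC-1 over TPC-1, of FPKM + 0.1 for the tested genes of the 10 members and of each further list, 1 point a gene, with each list's median marked. The median is -1.14 for the members and between -0.27 and 0.17 for the 8 lists. Members and lists were chosen with earlier results of these data known.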

How the data were processed

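mRNA of 3 TPC-1 and 3 *RRM2*-OE-TPC-1 libraries was sequenced. According to the methods and the submitters' processing notes, the authors cleaned reads with fastp, aligned them with HISAT2 2.0.5, counted them with featureCounts 1.5.0, divided by gene length and depth and deposited FPKM, and the notes name GRCh38.p14. The methods describe poly(A) selection, whereas the labels name depletion of rRNA and treatment with RNase R. The deposited table also gives other columns, such as gene length, from which whole reads were recovered for 100% of values within 0.01. All 58735 identifiers are in GENCODE 29. Precision is limited by 3 libraries per group, and for genes with few reads by counting error.

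Genes with at least 0.5 FPKM and 10 reads in 3 libraries were tested with limma 3.58.1 in R 4.3.3 (lmFit, and eBayes with a trend of variance on mean) on log2(FPKM + 0.1), with Benjamini-Hochberg adjustment. The fit was also run on simulated data in which few or no genes changed, unlike here, so that run says nothing about these results. Ratios within libraries were compared by exact permutation tests in Python 3.11.15 with scipy 1.17.1. Fold changes understate changes of low genes. Besides *RRM2*, the members, *SREBF2*, *INSIG1* and *SCAP*, the largest increase and decrease among passing genes of each list were named. Some genes that this rule covers are not reported here. The members and lists were chosen with earlier results of these data known. Alternatives were other pseudocounts, filters, scalings, no variance trend, voom on recovered reads, a test of a change above 2-fold, the replicate number as a block and each library left out. Libraries of an empty vector were not analysed here.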

Additional observations from a re-analysis of the deposited data

How the results depend on the processing

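The decreases of *SCD*, *SREBF1*, *ELOVL6*, *FASN*, *ACACA*, *ACSS2*, *FADS1* and *FADS2* kept their direction and passed in all 15 alternatives. The test of a change above 2-fold is not among these 15, and *ACSS2* did not pass it. Other filters, no variance trend and the replicate block leave a fold change as it was, so in these only the p-value could differ. The increase of *ACLY* did not pass with no variance trend (0.10, adjusted p = 0.0687), with the replicate number as a block (0.10, adjusted p = 0.0532) or scaled to library totals (0.042, adjusted p = 0.216), so that the count of higher members was 0 there. With 1 library left out its log2 fold change was 0.092 to 0.12 and the count 0 to 1. *ELOVL5* passed as lower when scaled to library totals (-0.095), as did *SCAP* (-0.13). Whether same-numbered replicates were paired is not given in the sources used here. The correlations of their deviations from the group means were -0.011, -0.0060 and -0.055, so no shared deviation was seen. The block changed no call of a member other than *ACLY*. Genes that were 2-fold higher numbered 610, but 920 with no filter on low values and 303 with a pseudocount of 1. Genes that were 2-fold lower numbered 950, but 413 with a pseudocount of 1. Of the citrate and NADPH genes, 1 instead of 2 passed as higher with the FPKM minimum alone, no variance trend, no filter, the block or library totals, and 1 to 2 with 1 library left out. Of the other elongation and desaturation genes, 0 instead of 1 passed as lower with the FPKM minimum alone, no variance trend, no filter or the block, and 0 to 1 with 1 library left out. Of the acyl-CoA and carboxylase genes, 1 instead of 2 passed as higher with no filter, and 1 to 2 with 1 library left out. The cause of these shifts was not tested. Few reads limit *THRSP* (1 to 23 per library), *HSD17B8* (31 to 72) and *HACD1* (175 to 266). No result reversed direction.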
